A study of Mus musculus with 2 samples.

Results

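The set comprised 10 genes that store triglyceride in fat cells, break it down or supply its parts: Lipe, Pnpla2, Gpd1, Pck1, Cd36, Plin4, Dgat2, Angptl4, Slc2a4 and Cdo1. They were found by gene symbol in the annotation of the array and are 10 of the 18193 genes that its probe sets name singly. Together they are read by 22 probe sets, and every one of these is described. The RNA came from pancreas of male offspring of C57BL/6J mothers, collected at 10 weeks of age. The control group were offspring of mothers kept on control diet. The threonine-deficient group were offspring of mothers that received a diet lacking enough of this essential amino acid from embryonic day 12.5 to 14.5. All offspring were weaned at 3 weeks, ate control diet afterwards and were not treated themselves. Each group was 1 pool of RNA on 1 array, called the control pool and the deficient pool here, and the sources used do not say how many animals a pool held. There was thus no replicate, no test could be run, and every difference is one between 2 pools. The genes were picked with the ratios between these arrays already known, so those ratios describe the genes and support nothing beyond that.

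In a fat cell, triglyceride is a glycerol backbone carrying 3 fatty acids, held in a lipid droplet. Fatty acids enter from blood lipoproteins and are joined to glycerol phosphate, which the cell makes from glucose or, by glyceroneogenesis, from smaller precursors such as pyruvate. In fasting, lipases on the droplet release the fatty acids again, and insulin holds that release back. Fat lies between and around the lobules of the pancreas, while acinar cells, which make digestive enzymes, form most of the organ.

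Promoter windows of 5 of the 10 genes are described, from the RefSeq table of build GRCm38.p6, each from 250 bases before to 50 bases after a gene start. The windows of Pck1 and Lipe are shown because these were the genes with the lowest ratios, and that of Pnpla2 because it encodes the other lipase of the set. Lipe has a pair of annotated starts. Bases in capitals mark matches, on either strand, to the motifs searched.
Pck1, chr2:173152823-173153122, plus strand: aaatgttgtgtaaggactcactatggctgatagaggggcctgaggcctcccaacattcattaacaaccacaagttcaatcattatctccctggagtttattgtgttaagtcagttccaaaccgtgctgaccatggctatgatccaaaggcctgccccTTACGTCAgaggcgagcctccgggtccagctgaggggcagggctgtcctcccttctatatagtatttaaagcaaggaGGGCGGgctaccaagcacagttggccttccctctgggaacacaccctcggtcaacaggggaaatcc
Lipe, upstream start, chr7:25395938-25396237, minus strand: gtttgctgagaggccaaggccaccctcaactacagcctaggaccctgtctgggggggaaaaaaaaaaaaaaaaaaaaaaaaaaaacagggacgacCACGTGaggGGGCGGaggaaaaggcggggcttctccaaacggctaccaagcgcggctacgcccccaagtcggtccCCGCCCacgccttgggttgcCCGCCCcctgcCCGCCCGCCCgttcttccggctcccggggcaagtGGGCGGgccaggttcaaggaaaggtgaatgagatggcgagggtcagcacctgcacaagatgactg
Lipe, downstream start, chr7:25390063-25390362, minus strand: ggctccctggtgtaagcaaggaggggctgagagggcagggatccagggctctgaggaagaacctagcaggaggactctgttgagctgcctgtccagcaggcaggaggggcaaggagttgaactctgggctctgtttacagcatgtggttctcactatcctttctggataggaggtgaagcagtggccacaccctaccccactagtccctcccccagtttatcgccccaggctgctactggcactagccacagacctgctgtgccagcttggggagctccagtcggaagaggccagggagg
Pnpla2, chr7:141454938-141455237, plus strand: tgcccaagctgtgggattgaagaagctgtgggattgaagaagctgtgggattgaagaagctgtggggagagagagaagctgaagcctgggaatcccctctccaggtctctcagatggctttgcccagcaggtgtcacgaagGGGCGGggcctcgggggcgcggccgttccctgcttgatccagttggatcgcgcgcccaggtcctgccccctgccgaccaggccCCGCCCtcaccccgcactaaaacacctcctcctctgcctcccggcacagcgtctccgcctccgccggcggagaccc

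The motifs were the cyclic AMP response element as TTACGTCA and as TGACGTCA, the nuclear receptor hexamer AGGTCA, the direct repeat of that hexamer spaced by 1 base, the E-box CACGTG, the CCAAT box as CCAAT, the GC box GGGCGG and the TATA box as TATAAA. The hexamer lies within the direct repeat, and both forms of the cyclic AMP response element end in ACGTCA. The form TTACGTCA was added with the Pck1 window in view. It was found in that window at bases 158 to 165 of 300, and 0.499% of all 32851 windows hold it. The upstream Lipe window held an E-box, found in 7.15% of all windows, and 6 GC boxes, of which a neighbouring pair overlapped. The downstream Lipe window held no match to any of these motifs. Pnpla2 had 2 GC boxes, a motif present in 35.7% of all windows, and Pck1 had 1. Of the windows not shown, Cd36 had the hexamer AGGTCA, found in 16.3% of windows, a CCAAT box, found in 37.4%, and 2 GC boxes, and Plin4 had a CCAAT box. The direct repeat, in 0.0396% of all windows, TGACGTCA, in 1.79%, and TATAAA, in 13.6%, were in none of the 6 windows of these 5 genes. These matches are letters in a window and not measured binding sites.

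Array values were MAS5 signals on a linear scale, and both arrays had been brought to the same trimmed mean. The 60th percentile was taken on each array, and the higher value, 264.9, served as a floor to which dimmer signals were raised, since dim probe sets vary widely. Where the deficient pool’s signal lay at the floor, the fold can only be bounded from below, which is written "at least". A log2 ratio is that of the deficient over the control pool, after the floor unless said otherwise. The local spread is the scaled median absolute deviation of log2 ratios, without the floor, over the 500 probe sets nearest in signal. It covers noise on these arrays and not differences between animals.

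Of the 22 probe sets, 15 exceeded the floor on either or both arrays, and every gene had at least 1 of these. On the probe set of highest mean signal, 9 of the 10 genes had a lower signal in the deficient pool and 1, Dgat2, a higher one. Over the 10758 genes that exceeded the floor on either array, 49.9% had a lower signal. The median log2 ratio of the 10 genes was −0.46, with a range from −1.82 for Pck1 to 0.33 for Dgat2, and the median over all those genes was 0.0011. Pck1 and Lipe were at least 2-fold lower, 2 of 10 genes, and none was 2-fold higher. Across the arrays 0.874% of genes were at least 2-fold lower and 1.28% at least 2-fold higher. Since the genes were chosen on this contrast, nothing is read from the difference between these shares. At the smaller limit of 1.5-fold, Angptl4 was lower as well, which makes 3 of 10 genes beside 5.36% of all genes. Both 2-fold calls rested on a deficient-pool signal below the floor.

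**Figure D1:**
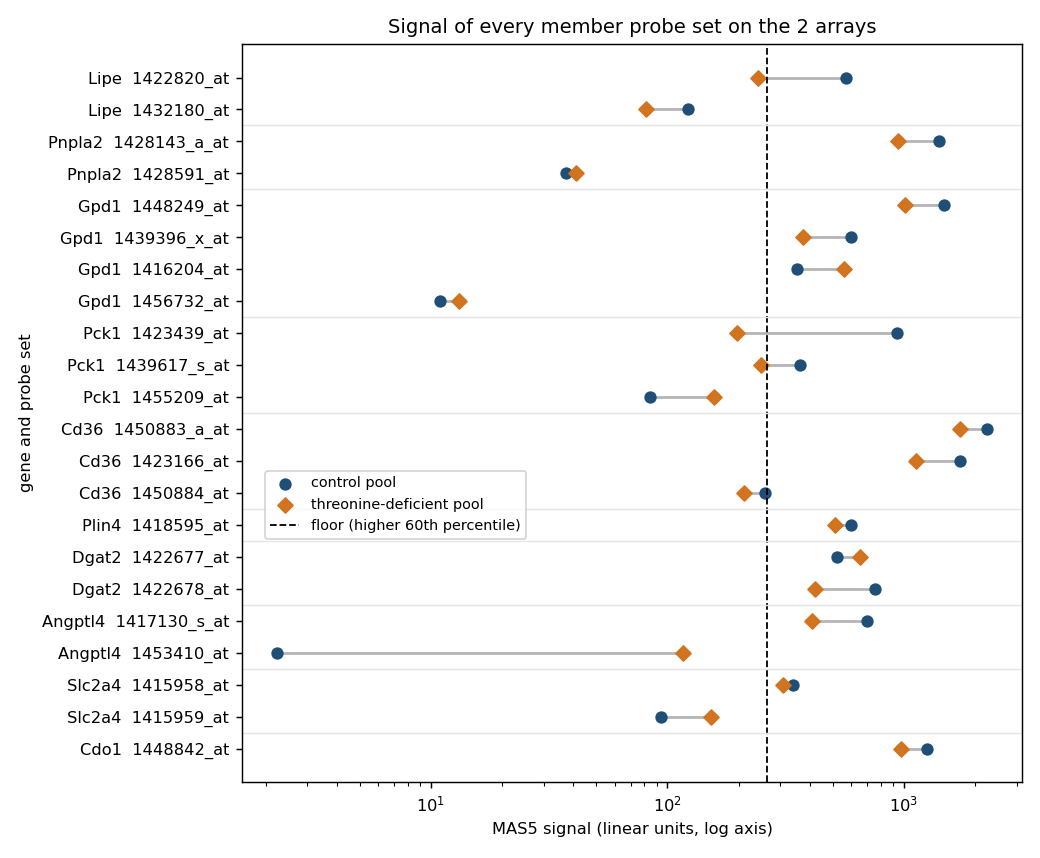
Signal of each of the 22 probe sets (rows, grouped by gene) in the control pool (circles) and the deficient pool (diamonds), on a log axis in MAS5 units, with the floor of 264.9 as a dashed line; there are no error bars because each group is 1 array. The 1423439_at probe set of Pck1 spans the widest gap of those above the floor, from 936 to 198, and 7 probe sets lie below the floor on both arrays.

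Signals of the lipases were lower in the deficient pool. Lipe encodes hormone-sensitive lipase, which cleaves diacylglycerol during lipolysis. Its brighter probe set, 1422820_at, read 571 in the control and 243 in the deficient pool, so that it was at least 2.16-fold lower. Without the floor the Lipe log2 ratio came to −1.23, beside a local spread of 0.59. The other Lipe probe set lay below the floor on both arrays, at 123 and 81.3. Pnpla2 encodes adipose triglyceride lipase, which removes the first fatty acid from a stored triglyceride. Its bright probe set, 1428143_a_at, read 1414 in the control and 943 in the deficient pool, a log2 ratio of −0.58 with a local spread of 0.30. Both signals were well clear of the floor, and the value in the deficient pool, 66.7% of the control, stayed inside the 2-fold limit. The suffix _a_at marks a probe set that can read several transcripts of a gene. The second Pnpla2 probe set was dim, at 37.3 and 41.2, and carried no information on direction.

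The genes that supply glycerol phosphate gave the lowest ratio of the set and also a conflict between probe sets. Pck1 encodes the cytosolic phosphoenolpyruvate carboxykinase, which starts glyceroneogenesis in fat and gluconeogenesis in liver and kidney. Its probe set 1423439_at read 936 in the control and 198 in the deficient pool, which made it at least 3.53-fold lower. Without the floor the log2 ratio came to −2.24, beside a local spread of 0.48. A second Pck1 probe set, 1439617_s_at, read 365 and 249, a log2 ratio of −0.46 that is a bound. The third probe set read 84.9 and 158, both below the floor. Both of the brighter Pck1 probe sets were therefore lower in the deficient pool, with ratios that are bounds. Without the floor they were −2.24 and −0.55.

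Gpd1 encodes the cytosolic glycerol-3-phosphate dehydrogenase, which reduces dihydroxyacetone phosphate to glycerol 3-phosphate. Its brightest probe set, 1448249_at, read 1474 in the control and 1014 in the deficient pool, a log2 ratio of −0.54 with a local spread of 0.30. Probe set 1439396_x_at read 599 and 374, a log2 ratio of −0.68. Probe set 1416204_at went the other way, at 352 and 559, a log2 ratio of 0.67 with a local spread of 0.47. All these signals were above the floor, so direction for Gpd1 depends on the probe set, and the suffix _x_at marks probes that can cross-hybridise with other transcripts. The fourth, at 10.9 and 13.1, lay far below the floor.

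The genes of fatty acid supply from blood were lower in each probe set above the floor. Cd36 encodes a membrane protein that takes up long-chain fatty acids in fat cells, endothelial cells and macrophages. Its probe set 1450883_a_at read 2246 in the control and 1728 in the deficient pool, a log2 ratio of −0.38 with a local spread of 0.24. Probe set 1423166_at read 1726 and 1122, a log2 ratio of −0.62 with a local spread of 0.28. Cd36 thus had 2 bright probe sets that both read lower and differed by 0.24 in log2 ratio. The third probe set was just below the floor on both arrays, at 258 and 210. Angptl4 encodes a secreted protein that inhibits lipoprotein lipase, the enzyme that frees fatty acids from lipoproteins. Its probe set 1417130_s_at read 699 in the control and 410 in the deficient pool, a log2 ratio of −0.77 with a local spread of 0.48. The suffix _s_at marks probes shared by several transcripts. The other Angptl4 probe set read 2.24 and 117, both below the floor, and its ratio is not used for that reason.

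Dgat2 and Plin4 act at the droplet itself. Dgat2 encodes a diacylglycerol acyltransferase, which adds the last fatty acid to make triglyceride. Its probe set 1422677_at read 521 in the control and 653 in the deficient pool, a log2 ratio of 0.33 with a local spread of 0.41. Probe set 1422678_at of the same gene read 757 and 421, a log2 ratio of −0.85 with a local spread of 0.45. The annotation gives both the same source transcript, AK002443, yet they differed by 1.17 in log2 ratio, so no direction is given for Dgat2. Plin4 encodes perilipin 4, a coat protein of lipid droplets that is abundant in white fat. Its single probe set read 600 in the control and 512 in the deficient pool, a log2 ratio of −0.23 that is smaller than its local spread of 0.46.

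The remaining genes were within 1.5-fold. Slc2a4 encodes GLUT4, the glucose transporter that insulin brings to the surface of fat and muscle cells. Its brighter probe set read 339 in the control and 307 in the deficient pool, both close to the floor. The log2 ratio of Slc2a4, −0.14, was smaller than its local spread of 0.58, and its second probe set lay below the floor at 93.5 and 153. Cdo1 encodes cysteine dioxygenase, which oxidises cysteine on the way to taurine and is abundant in liver and fat. Its single probe set read 1254 in the control and 977 in the deficient pool, a log2 ratio of −0.36 with a local spread of 0.30. The Cdo1 ratio thus came to 1.19 local spreads, and 38.1% of all probe sets above the floor on either array exceeded 1 local spread.

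**Figure D2:**
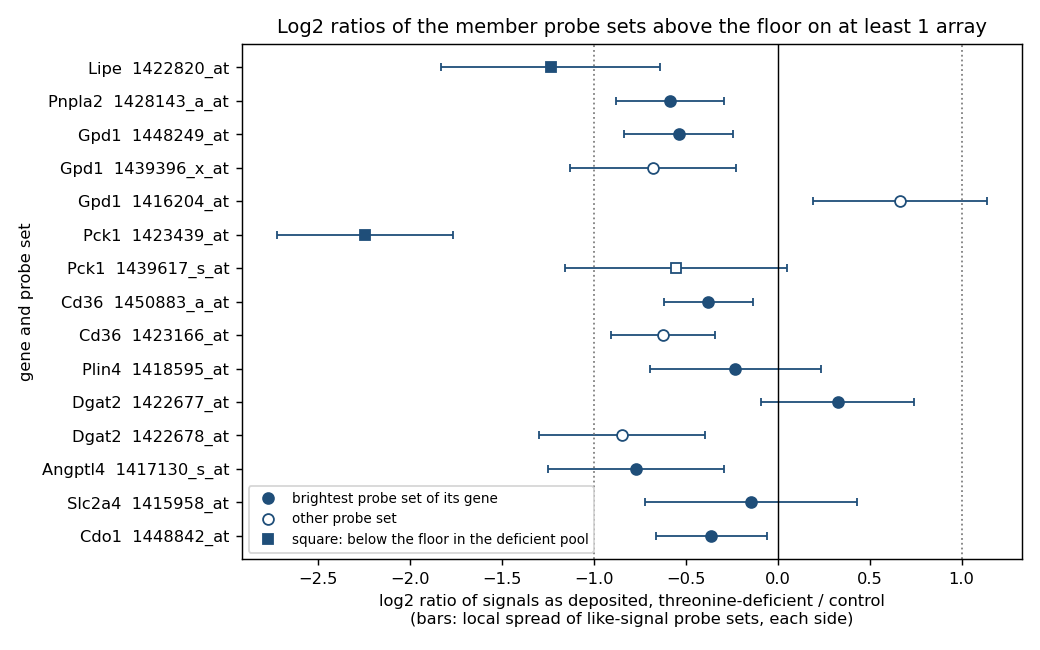
Log2 ratio of the deposited signals, threonine-deficient over control, for the 15 probe sets above the floor on at least 1 array; bars extend 1 local spread to each side, filled symbols mark the brightest probe set of a gene, and squares mark probe sets below the floor in the deficient pool. The ratios run from −2.24 for Pck1 to 0.67 for one probe set of Gpd1, and Gpd1 and Dgat2 have probe sets on both sides of 0.

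At the level of probe sets, 13 of the 15 above the floor were lower in the deficient pool, where 49.4% of all 17531 such probe sets were. Their median log2 ratio was −0.54, and 2 of the 15 were at least 2-fold lower, beside 0.861% of all probe sets. None was 2-fold higher, beside 1.43% of all probe sets. The deposited ratio was larger than the local spread in 11 of the 15 and larger than 2 local spreads in 3. Over all 17531 probe sets above the floor on either array these shares were 38.1% and 9.10%. The 3 were 1422820_at of Lipe, 1423439_at of Pck1 and 1423166_at of Cd36. Of the 4 genes with more than 1 probe set above the floor, Cd36 and Pck1 had the same direction in all of these, and Gpd1 and Dgat2 did not. The 10 genes thus differ in how well they were read. Cd36 had 2 bright probe sets of the same direction, and Pnpla2 and Cdo1 had 1 probe set each with both signals well clear of the floor. Gpd1 was bright in 1 probe set but contradicted by another. Lipe and Pck1 had signals below the floor in the deficient pool, and Slc2a4 lay close to the floor in both.

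The calls for Lipe and Pck1 depended on how dim signals and several probe sets were handled. With the floor raised to the 75th percentile, a signal of 512.2, the log2 ratio was −0.16 for Lipe and −0.87 for Pck1, and no gene of the set was 2-fold lower. When the ratios of all probe sets of a gene were combined by their median, in which probe sets below the floor count as 0, it was −0.55 for Lipe, −0.46 for Pck1 and −0.26 for Dgat2, again with no gene 2-fold lower. When the floor value was instead added to every signal as a pseudocount, Pck1 kept its call at −1.38 and Lipe lost it at −0.72.

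**Figure D3:**
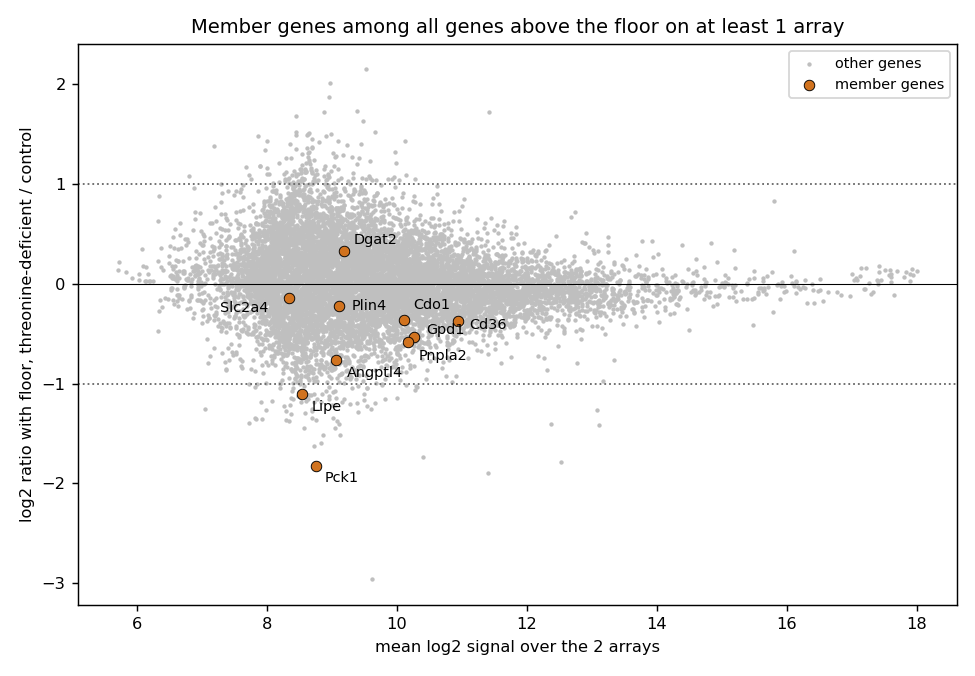
Log2 ratio with the floor (vertical axis) against mean log2 signal over both arrays (horizontal axis) for the brightest probe set of each of 10758 genes; the 10 genes of the set are the labelled points, and dotted lines mark 2-fold. Lipe and Pck1 lie below the lower dotted line, at −1.11 and −1.82, in the range of low signal where all genes scatter widely.

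The wider pathways were read from gene lists written by function, with earlier results of these data known. Each gene was read by its brightest probe set, and 49.9% of all genes above the floor were lower. Taken once each, 142 listed genes lay above the floor, of which 3 were at least 2-fold lower and none was 2-fold higher. Without the 10 genes of the set, 1 of 132 was at least 2-fold lower, which is 0.758% of them beside 0.874% of all genes, and their median log2 ratio was −0.08. That gene was Cidec, which encodes a protein that fuses lipid droplets and read 604 in the control and 95.3 in the deficient pool, at least 2.28-fold lower.

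Lipases and their partners were lower in the brightest probe set of 8 of 8 genes above the floor, beside 49.9% of all genes. Their median was −0.40, and Lipe and Pnpla2 of the set are among them. The 6 that are not in the set were all lower, with a median of −0.28. Mgll, the monoglyceride lipase that completes lipolysis, had a log2 ratio of −0.52 in its brightest probe set, but its others ranged up to 0.69. Lipa, the lysosomal acid lipase, had −0.43, with 0.25 in a probe set at the floor in the control pool. Abhd5, the activator of adipose triglyceride lipase, had −0.36 and, in a second probe set, −0.52. Ddhd2, a triglyceride and phospholipid hydrolase, had −0.20. None of these 4 reached 1.5-fold in its brightest probe set. Among 17 genes of the hormonal control of lipolysis, 10 were lower and the median was −0.11. The adenylyl cyclase gene Adcy5 had −0.78, Prkacb, a catalytic subunit of protein kinase A, −0.52, the kinase anchor gene Akap1 0.54 and Adcy3 at least 0.37.

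Glycerol phosphate supply and glyceroneogenesis had a median of −0.13. Here 13 of 17 genes were lower, Gpd1 and Pck1 among them, beside 49.9% of all genes. Without Gpd1 and Pck1, 11 of 15 were lower, with a median of −0.08. Pck2, the mitochondrial counterpart of Pck1, read 5955 in the control and 3609 in the deficient pool, a log2 ratio of −0.72 with a local spread of 0.18. A dimmer Pck2 probe set, at 336 and 330, had −0.03. The mitochondrial aspartate and glutamate carriers had log2 ratios of 0.66 for Slc25a13 and −0.43 for the brightest probe set of Slc25a12. A dimmer Slc25a12 probe set, at the floor in the control pool, had at least 0.25. Got1, the cytosolic aspartate aminotransferase, had −0.27.

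Triglyceride synthesis had a median of 0.11, with 7 of 11 genes higher, and none was 2-fold apart. Dgat1, the other diacylglycerol acyltransferase, had −0.65, and Gpam, which attaches the first fatty acid to glycerol phosphate, had −0.26 in its brightest and 0.58 in a dimmer probe set. Lpin1, a phosphatidate phosphatase, had 0.26 and 0.82, and the acyltransferase gene Agpat4 had 0.52. Of 14 lipid droplet proteins 10 were lower, beside 49.9% of all genes, with a median of −0.14. Without Plin4, which is in the set, 9 of 13 were lower, with a median of −0.12. Plin2, a droplet coat protein found in many cell types, read 1150 in the control and 577 in the deficient pool, which is 1.99-fold lower. The caveola genes Cavin1 and Cav2 had −0.69 and −0.53. A second Cavin1 probe set read 23.1 and 292.

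The lipoprotein lipase system and fatty acid uptake had a median of −0.27, with 12 of 17 genes lower, beside 49.9% of all genes. Without Cd36 and Angptl4, 10 of 15 were lower, with a median of −0.26. The fatty acid carrier gene Fabp4 of fat cells had −0.98 and, in a second bright probe set, −0.47. Apoc1, an apolipoprotein that restrains lipoprotein lipase, had −0.80. Higher in the deficient pool were the fatty acid transporter gene Slc27a1, with 0.92 and, in a second probe set, 0.35, and Fabp3, the fatty acid carrier of muscle, at least 0.69. Members of this list therefore lay on both sides of 0 beside Cd36 and Angptl4.

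Insulin-sensitive glucose uptake had a median of −0.03, with 13 of 24 genes lower, close to the background of 49.9%. Vamp2, a vesicle protein, had 0.85. Cbl, an adaptor of insulin signalling, had −0.64, the fusion protein gene Stx4a −0.40, and the kinase gene Akt1 −0.39 in its brightest and 0.20 in another probe set. Cysteine oxidation and taurine synthesis had a median of −0.15, with 9 of 16 lower. Ethe1, a sulfur dioxygenase of mitochondria, had −0.62. The taurine transporter gene Slc6a6 had 0.60, although −0.11 in a probe set that was dim in the deficient pool. The genes Fmo1, which makes taurine from hypotaurine, and Csad, a decarboxylase of taurine synthesis, had 0.45 and 0.42. Transcriptional regulators of fat cells had a median of −0.08, with 11 of 21 lower. The nuclear receptor gene Esrra had −0.78 and, in a dimmer probe set at the floor in the control pool, at least 0.21. Its corepressor gene Nrip1 had −0.71 and, in other probe sets, 0.04 and at least 0.44. Klf5 had −0.56 and Cebpd −0.53.

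**Figure D4:**
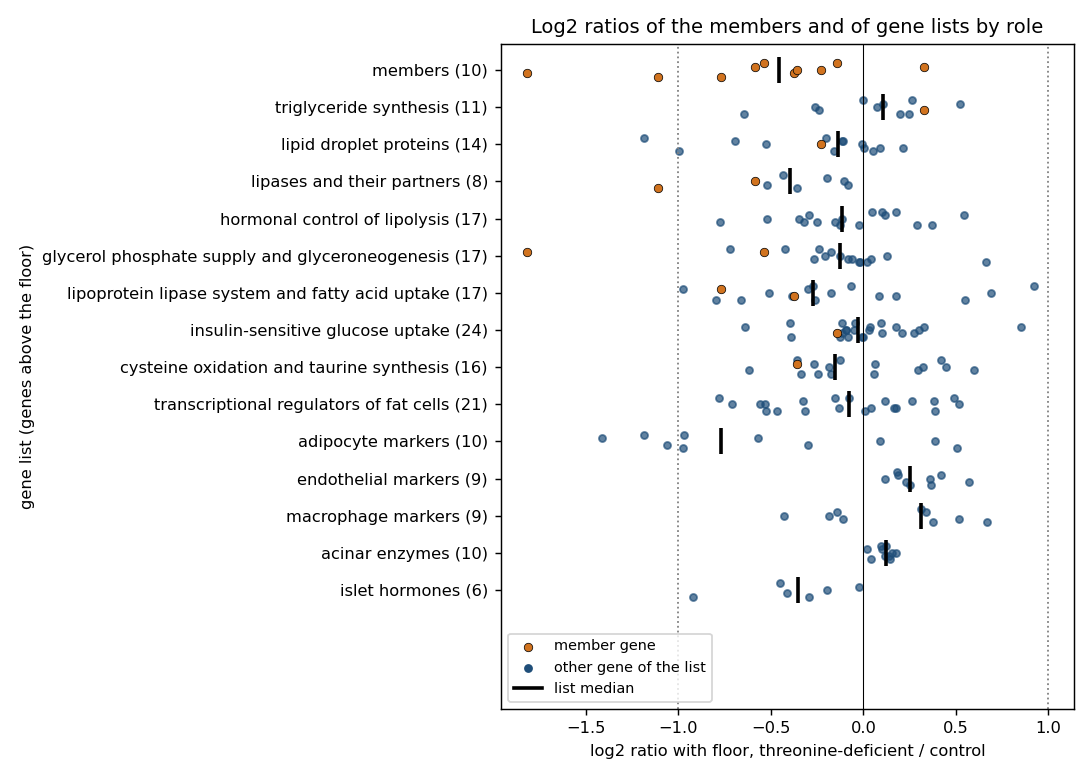
Log2 ratio with the floor for genes above the floor on at least 1 array, one row per gene list with the number of genes in brackets; orange points are genes of the set, blue points are other genes, and black bars are list medians. The set has a median of −0.46, adipocyte markers −0.77 and acinar enzymes 0.12.

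The samples were checked against marker genes of cell types that a pancreas can hold. Acinar enzyme genes were above the floor in 10 of 10 and islet hormone genes in 6 of 6, so the tissue label was met by its defining markers. The summed acinar signal in the deficient pool was 108% of that in the control pool, with a median log2 ratio of 0.12. Cela2a, an elastase, had 0.18 and Ctrb1, a chymotrypsinogen, 0.16. The islet hormones had a summed signal at 82.2% of the control and a median of −0.35, with somatostatin, Sst, at −0.92 and peptide YY, Pyy, at −0.45.

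Adipocyte markers, none of which is in the set, were mostly lower as well. Of 10 above the floor, 7 were lower in the deficient pool, beside 49.9% of all genes. Of these, 3 were at least 2-fold lower, beside 0.874% of all genes, and the median log2 ratio of the 10 was −0.77. The list was written with earlier results of these data known, so nothing is read from the difference between these shares. The call for Cidec among the 3 rested on a deficient-pool signal below the floor. The summed signal of the markers was 44534 in the control and 24877 in the deficient pool, 55.9% of the control. Car3, Fabp4 and Lpl, at 14501, 12966 and 11407 in the control pool, made up most of that sum. The summed signal of the brightest probe sets of the 10 genes was 10054 and 6985, which is 69.5% of the control. Car3, a carbonic anhydrase abundant in fat, had −1.42 and, in a second probe set, −1.69. The adipokine genes Adipoq and Retn had −1.06 and −0.57. The lipogenic regulator Thrsp had −0.97 in its brightest and −0.51 in a second probe set. For Lpl, lipoprotein lipase, these were −0.30 and −0.23. The others were Cidec and Fabp4, given above, and 3 genes with higher signals in the deficient pool. These were Acvr1c, an activin receptor, at 0.51 but −0.48 in another probe set, the fat cell regulator Pparg at least 0.39, and the amine oxidase gene Aoc3 at least 0.09. Lep and Cidea lay below the floor on both arrays, and Cfd, Plin1 and Adrb3 were not analysed here. Fewer fat cells and less of these RNAs per fat cell cannot be told apart in pooled tissue. The part of fat cell content in the ratios of the 10 genes was not tested.

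Several of the 10 genes are also active outside fat. For Pck1, Gpd1 and Cdo1, which liver or kidney also make, 4 of 11 liver markers were above the floor, with a median log2 ratio of −0.03. Apoa2 had 0.70 and Apoh at most −0.47. Ttr, at 13714 in the control and 11538 in the deficient pool, made up most of the summed liver marker signal, 14704 in the control. Alb read 279 and 320, close to the floor. Of 10 kidney and intestine markers 2 were above the floor, Kap at −0.42 and Slc5a2 at 0.01. For Slc2a4, 1 of 12 skeletal muscle markers was above the floor, Ckm at 0.73. For Cd36 and Angptl4, endothelial markers were higher in 9 of 9 genes above the floor, where 49.9% of all genes were lower. Their median was 0.25, and they included Pecam1 at 0.57 and Tek at 0.42. Kdr, also among them, was below the floor in the control pool. Tie1, at 198 in the control and 97.2 in the deficient pool, lay below the floor on both arrays. Macrophage markers had a median of 0.31, with 5 of 9 higher and 4 lower, and a summed signal at 102% of the control. Adgre1 had 0.67, and Csf1r had 0.51 in its brightest probe set but 0.25 and 0.10 in others. The lower markers were Lyz2 at −0.43, C1qa at −0.11, C1qb at −0.19 and C1qc at −0.14. Markers of stellate cells and fibroblasts had a median of −0.01, with Pdgfra at −0.31 and Col1a2 at 0.11. Lymph node and immune cell markers had 0.18 over 5 genes, with Cd4 at most −0.52 and Cd8a at 0.44. The part of these cells in the ratios of the 10 genes was not tested either.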

How the data were processed

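The deposited values were linear signal intensities for 45101 probe sets, made by the authors with MAS5 per the submitters' processing notes. The MAS5 version, the probe masking and the genome build are not given in the sources used here. The authors' scaling gave both arrays the same trimmed mean, so a difference in total mRNA between pools is not visible. Of the probe sets, 64 were controls and left out, 34945 had 1 gene symbol, 932 had several and 9160 had none. Symbols were updated by gene identifier through the RefSeq table of GRCm38.p6, which matched 34741 and left 204 with the name in the annotation.

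Signals were raised to the 60th percentile floor (264.9) before the log2 ratio was taken, and a gene was read by its probe set of highest mean log2 signal. With 1 array per group, no p-value, interval or standard deviation was computed, and the number of arrays limits the precision. Detection calls were not used here. A gene was called at 2-fold. The alternatives were median centring, loess (fraction 0.3), a floor at the 50th percentile, at the 75th or none, a pseudocount, the median over probe sets, and no probe sets with suffix _s_at, _x_at or _a_at. The genes of the set and the lists were chosen with earlier results of these data known. Named genes were all 10 of the set, up to 4 others of largest absolute log2 ratio per pathway list, all adipocyte markers above the floor and up to 2 per other cell type list. The procedure was tested on simulated data. Python 3.11.15, pandas 2.3.3, numpy 2.4.6 and statsmodels 0.14.6 were used.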

Additional observations from a re-analysis of the deposited data

How the results depend on the processing

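Under 8 alternatives the median log2 ratio of the 10 genes stayed between −0.46 and −0.33, and 9 genes kept a negative log2 ratio wherever a value could be had. Dgat2 was positive in 7 and negative in 1. The count of genes of the set at least 2-fold lower was 0 with the floor at the 75th percentile, 1 with the pseudocount and 0 with the median over probe sets, and 2 otherwise. The count of probe sets was 0 and 1 under the first 2 of these. Without probe sets of a sharing suffix, Pnpla2 and Angptl4 had no probe set above the floor, and with the floor at the 75th percentile Slc2a4 had none. All genes at least 2-fold lower numbered 94, against 388 with no floor, 206 and 23 with the floor at the 50th and 75th percentiles, 52 with the pseudocount and 39 with the median over probe sets. Those at least 2-fold higher numbered 138, against 659, 341, 23, 86 and 65. Raising the floor reduces the genes that can be called. Adipocyte markers had a median of −0.41 with the median over probe sets, in which probe sets below the floor count as 0. Macrophage markers had −0.13 with the floor at the 75th percentile, which left 6 of their 9 genes above it. The other 138 of 140 list medians moved by less than 0.33, the scaled median absolute deviation over genes. No paired analysis was possible because each group had 1 array. No array could be left out for the same reason. Depth is not defined for arrays, and signals near the floor limit Lipe, Pck1 and Slc2a4 most.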

Other observations

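Brown fat markers were not part of the comparison above. Of 10 on the array, 4 were above the floor on at least 1 array, with a median log2 ratio of −0.06. Ucp1, the uncoupling protein of brown fat, read 159 in the control and 430 in the deficient pool, at least 1.62-fold higher. Dio2, a deiodinase that activates thyroid hormone, read 346 and 229, at least 1.31-fold lower, but another of its probe sets read 82.0 and 293. Each gene had a signal at the floor on 1 array, so both folds are bounds.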
